A study of Mus musculus with 10 samples.

Results

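The genes described here encode enzymes that remove reactive aldehydes, peroxides, superoxide and electrophiles, together with the pair of proteins that control many of them. They were chosen by gene symbol: the aldehyde dehydrogenases (Aldh), glutathione transferases (Gst), glutathione peroxidases (Gpx), peroxiredoxins (Prdx), thioredoxin reductases (Txnrd) and superoxide dismutases (Sod), and 9 single genes, namely Nqo1, Hmox1, Gclc, Gclm, Gsr, Srxn1, Cat, Nfe2l2 and Keap1. A protein-coding transcript was required, which left out 1 matching symbol. This gave 72 of the 45706 genes in the files. No measured value enters the rule, but the group was proposed with 2 results of these data in view, the level of Aldh3a1 at day 3 and that of Gpx2 at day 9. Those 2 patterns are given below as descriptions, with no p-value. Both genes stayed in the fit across all genes and in the counts of calls. The counts of calls over the whole group in each comparison are therefore also given without them. Of the 72 genes, 65 had enough reads to be tested. Gpx5 had 0 reads in all 10 libraries, and Aldh1a7, Aldh3b3, Aldh8a1, Gsta2, Gstt4 and Prdx6b had too few.

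The study followed mouse embryonic fibroblasts (MEFs) on their way to induced pluripotency by RNA-seq, with 2 libraries in each of 5 groups. All were of strain C57BL/6 x 129. MEF and induced cells carried the genotype OKSM Col1a1/M2rtTA ROSA26, a doxycycline-inducible cassette of Oct4, Klf4, Sox2 and Myc with its transactivator. MEFs were unsorted and kept in MEF medium without doxycycline. Day 3 (D3), day 6 (D6) and day 9 (D9) cells were in ESC medium with 1 µg/ml doxycycline and 50 µg/ml ascorbic acid. Sorting for the surface antigen SSEA1 was applied on days 6 and 9 but not on day 3. The reference was V6.5 embryonic stem cells (ESCs), a single established line without the cassette, unsorted and grown in ESC medium on irradiated feeder cells. The labels describe ESC medium as containing serum, β-mercaptoethanol, which is a reducing agent, and LIF. Cassette induction, the change of medium and ascorbic acid, itself an antioxidant, therefore cannot be told apart in any comparison of induced cells with MEFs. Sorting cannot be told apart from time between day 3 and day 6, nor from induction between day 6 or day 9 cells and MEFs. ESCs differed from day 9 cells in line, in the cassette and in sorting, and were grown on feeder cells. Doxycycline and ascorbic acid are given only for induced cells. None of these can be told apart from cell state in the comparison of ESC with day 9.

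Reactive aldehydes arise from lipid peroxidation and from metabolism, and aldehyde dehydrogenases oxidise them to acids. Glutathione, a tripeptide made by glutamate-cysteine ligase and glutathione synthetase, is joined to electrophiles by glutathione transferases and is used by glutathione peroxidases to reduce peroxides. Peroxiredoxins reduce peroxides with electrons that reach them from NADPH through thioredoxin reductase and thioredoxin. The transcription factor NRF2, encoded by Nfe2l2, is held at a low level by KEAP1 and, when released, binds antioxidant response elements near many of these genes. Control of NRF2 acts largely on the protein, which RNA-seq does not measure.

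Libraries held 29585876 to 38275024 estimated reads. Of 18 fibroblast markers, the summed level was 15607 to 16287 TPM, a level per transcript length relative to the whole library, in MEFs, 3291 to 3418 at day 3, 483 in both day 9 libraries and 2267 to 2366 in ESCs. The 10 pluripotency genes taken outside the cassette summed to 2663 to 2691 TPM in ESCs and to 110.0 to 111 at day 9. Simple epithelial markers were highest at day 9, at 386 to 407 TPM. Macrophage markers summed to 61.9 to 63.8 TPM in ESCs and to 22.6 to 24.9 at day 3, against 11.6 to 11.7 in MEFs. Among them, Ptprc, Csf1r and Cd14 were lower in ESCs and at day 3 than in MEFs. Xist was at 0.739 and 0.793 CPM (counts scaled to a common library total) in MEFs and at 930.0 to 1317 in the 6 induced libraries. Ddx3y, which is Y-linked, was at 86.4 and 90.6 CPM in MEFs and at no more than 0.176 in the induced libraries, so the sex of the cells differed between MEFs and induced cells and cannot be told apart from induction. ESC libraries had Xist at 9.00 and 11.3 CPM and Ddx3y at 26.1 and 26.8, so in the comparison of ESC with day 9 sex and cell state cannot be told apart either.

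Levels are given as CPM after scaling between libraries where 1 gene is followed, and as TPM, which is per length, where genes are compared. A gene was called higher or lower with edgeR at a Benjamini-Hochberg adjusted p under 0.05 over 20165 genes and a log2 fold change of at least 1 in size. The smallest p that 2 against 2 libraries allow in an exact permutation test (two-sided) is 0.333, so single genes rest on the fit across all genes. The labels do not say that replicates came from separate embryos or cultures, so p-values measure the spread between these libraries, which may be technical. In bulk RNA, fewer cells of a type and less RNA per cell cannot be told apart. Successive comparisons share libraries, and the values below are set side by side without counting agreement between them. Scaling by library size alone moved the median of all genes to 0.285 for day 3 against MEF, 0.102 for day 6 against day 3, 0.438 for ESC against MEF and 0.482 for day 9 against MEF, in log2 units.

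Between MEF and day 3, 14 of the 65 tested genes of the group were higher and 13 lower, against a background of 14.6% and 14.5% of all genes tested. Their median log2 fold change was 0.134, beside 0.0801 over all genes. From day 3 to day 6, 7 were higher and 5 lower (background 9.26% and 10.2%), with a median of 0.0773 beside 0.0331. From day 6 to day 9, 7 were higher and 1 lower (background 5.18% and 2.68%). ESCs had 12 higher and 21 lower than day 9 cells (background 18.6% and 14.3%). Set against MEFs, day 9 cells had 21 higher and 16 lower (background 24.1% and 19.8%), with a median of 0.505 beside 0.193. ESCs had 17 higher and 17 lower than MEFs (background 25.5% and 20.6%), with a median of -0.149 beside 0.0992. This even split depends on the scaling: with library-size scaling it became 22 higher and 12 lower. That setting also moved the median of all genes to 0.438. The share of all genes called under it was not taken, so the 22 and 12 have no background. Without Aldh3a1 and Gpx2, 63 genes remained. Of these, 13 were higher and 13 lower at day 3 against MEF, 6 and 5 at day 6 against day 3, and 6 and 1 at day 9 against day 6. The counts were 12 and 19 for ESC against day 9, 19 and 16 for day 9 against MEF, and 15 and 17 for ESC against MEF. The median at day 3 against MEF was then 0.0192. Both genes lay above 0.134, and leaving out any 2 genes above the median moves it to the next lower rank. As shares of the 65, with both genes kept, the counts were 32.3% and 24.6% for day 9 against MEF, and 18.5% and 32.3% for ESC against day 9. Within the group, 19 tested genes varied by a factor of 10 or more between their highest and lowest group mean. Another 15 varied by less than a factor of 2. Aldh3a1 and Gpx2 are among the 19. So are Aldh1a2, Aldh3b2, Gpx6 and Gstm3, whose lowest group mean was 0 CPM, so that their factor has no upper bound. Both counts were made within the group only. Of the 12 with a mean of 100 TPM or more, 8 varied by less than a factor of 3.

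**Figure D1:**
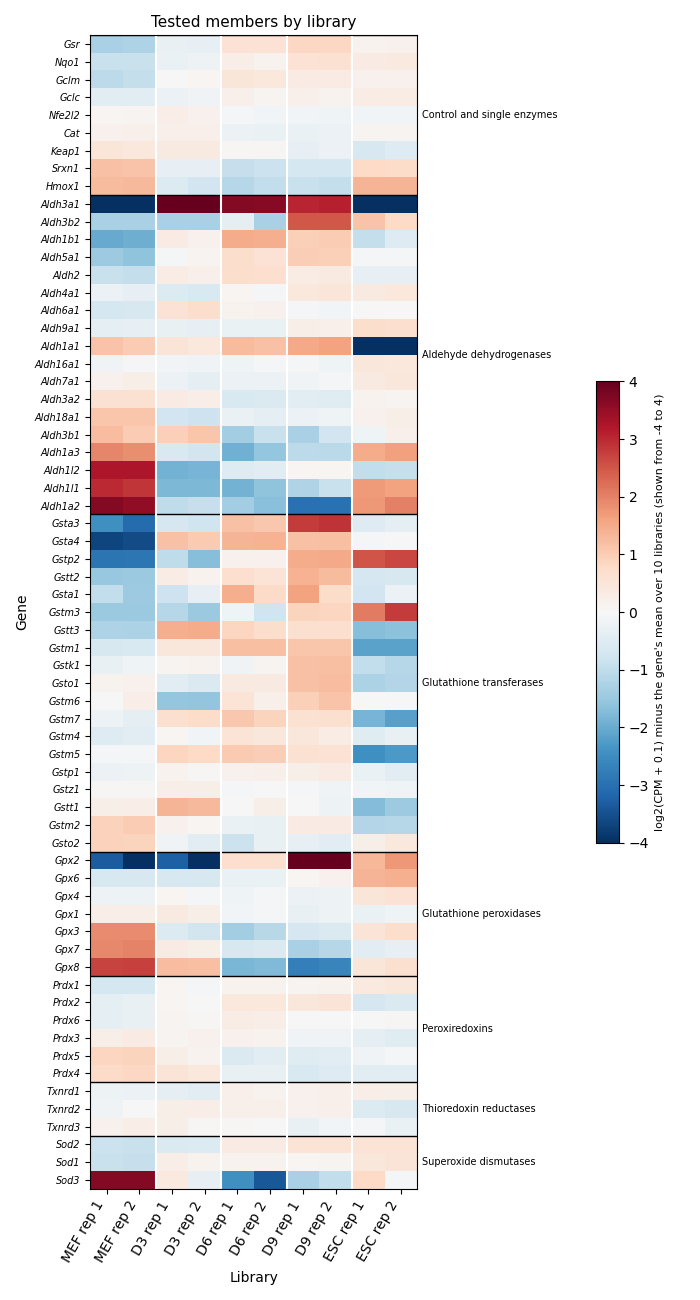
Heat map of the 65 tested genes by library, ordered by family, as log2(CPM + 0.1) minus the gene's mean over the 10 libraries, with the colour scale limited to -4 to 4. The 2 libraries of each group are alike, the peroxiredoxins and thioredoxin reductases are pale throughout, and many glutathione transferases are red at days 6 and 9 and blue in ESCs.

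Of the pair of control genes, Nfe2l2 varied little and Keap1 was lower in ESCs than in MEFs. Nfe2l2 (chr2:75675513-75704641, GRCm38) was at 97.7 and 101 CPM in MEFs, 112 and 106 at day 3, 88.8 and 87.2 at day 6, 86.5 and 83.1 at day 9 and 86.3 and 86.8 in ESCs. The libraries of these groups lay within a factor of 1.29 by group mean, and the gene was called in none of the 6 comparisons. Keap1, which encodes the adaptor that sends NRF2 for degradation, was at 69.0 and 66.3 CPM in MEFs, 64.2 and 63.7 at day 3, 51.5 and 50.9 at day 6, 39.3 and 41.9 at day 9 and 31.8 and 34.6 in ESCs. No 2 adjacent groups overlapped, but no single step passed the fold minimum. ESC against MEF did, at a log2 fold change of -1.03 ± 0.05 (SE, adjusted p = 1.4e-10 by edgeR), which became -0.69 with library-size scaling and -0.50 with an offset for transcript length and was then no longer called. Without ESC replicate 1 it was -0.97, also under the minimum.

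The core of the antioxidant response element, TGACNNNGC, was searched on both strands from 250 bases before to 50 bases after the RefSeq start sites (GRCm38.p6). Of the 72 genes, 58 were in the promoter table, and 11 of these (19.0%) held the core, beside 14.0% of all 27025 genes in the table. Over single windows the share was 15.1% of 73, beside 12.4% of 32851. The 11 were Aldh1a2, Aldh9a1, Gclm, Gsta3, Gstm5, Gstm7, Nfe2l2, Prdx1, Sod1, Srxn1 and Txnrd1. At day 9 against MEF, 2 of the 11 were higher and 2 lower (background 24.1% and 19.8%), and 7 were not called. Of these, 6 are shown, 1 from each of glutathione synthesis, the transferases, the peroxiredoxins, the superoxide dismutases, the thioredoxin reductases and the aldehyde dehydrogenases, to set the core beside genes that were higher, not called and lower at day 9. They were picked with these values known. Each is written 5′ to 3′ on the strand of the gene, which is the plus strand for these 6, with the core or its reverse complement in capitals.
Gclm: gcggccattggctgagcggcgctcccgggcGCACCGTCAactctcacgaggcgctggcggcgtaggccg
Gsta3: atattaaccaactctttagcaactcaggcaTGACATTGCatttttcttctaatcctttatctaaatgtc
Prdx1: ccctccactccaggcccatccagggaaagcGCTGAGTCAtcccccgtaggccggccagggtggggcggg
Sod1: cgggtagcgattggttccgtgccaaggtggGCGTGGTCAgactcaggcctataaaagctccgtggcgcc
Txnrd1: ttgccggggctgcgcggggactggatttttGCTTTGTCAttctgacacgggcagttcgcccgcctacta
Aldh1a2: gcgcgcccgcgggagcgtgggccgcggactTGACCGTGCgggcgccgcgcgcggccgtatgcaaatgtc
They lie at chr3:122245393-122245461, chr1:21240434-21240502, chr4:116685436-116685504, chr16:90220676-90220744, chr10:82859084-82859152 and chr9:71215647-71215715, in that order. Against MEF, day 9 log2 fold changes were 1.34 for Gclm, 5.80 for Gsta3, 0.84 for Prdx1, 1.00 for Sod1 and 0.41 for Txnrd1, of which the first 2 were called. Aldh1a2, with 0 reads at day 9, was at least 112-fold lower than in MEFs. Srxn1, the other gene with the core that was called lower, stood at -1.85; its match begins at base 29 after the RefSeq start and is not shown. A match is a run of letters, and binding was not measured here.

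Genes commonly reported as NRF2 targets went in both directions. Nqo1, a quinone reductase (chr8:107388225-107403206), was at 19.8 and 19.9 CPM in MEFs, 30.7 and 31.9 at day 3, 44.1 and 40.7 at day 6, 55.7 and 56.5 at day 9 and 46.1 and 48.3 in ESCs. All induced and ESC libraries lay above both MEF libraries, and day 9 against MEF gave a log2 fold change of 1.5 ± 0.06 (SE, adjusted p = 4.8e-12 by edgeR). Gsr, the glutathione reductase (chr8:33652523-33698163), was at 33.5 and 34.8 CPM in MEFs, 66.6 and 65.3 at day 3, 122 and 124 at day 6, 147 in both day 9 libraries and 90.8 and 93.1 in ESCs. Its groups were separate at each step up to day 9, where it stood 2.10 ± 0.04 above MEF on the log2 scale (SE, adjusted p = 2.1e-15 by edgeR).

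The 2 subunits of glutamate-cysteine ligase, which makes the first bond of glutathione, did not change equally. The modifier subunit gene Gclm (chr3:122245557-122270732) was at 28.9 and 30.8 CPM in MEFs, 60.7 and 63.3 at day 3, 84.5 and 80.2 at day 6, 75.2 and 75.7 at day 9 and 67.9 and 68.1 in ESCs. Every later library was above both MEF libraries, by 1.05 ± 0.05 on the log2 scale at day 3 (SE, adjusted p = 1.1e-10 by edgeR) and 1.34 at day 9. The catalytic subunit gene Gclc went from 32.3 and 33.2 CPM in MEFs to 37.9 and 40.9 at day 3 and 51.4 and 49.6 at day 9, with 55.5 and 55.2 in ESCs. Its libraries were also separate from MEF, but at log2 fold changes of 0.26 (day 3) to 0.76 (ESC) against MEF the gene was not called, nor was it in any other comparison. With library-size scaling the ESC value became 1.10 and was called. The longest Gclm transcript took 36.5% and 34.4% of the gene's reads in MEFs and 52.3% and 52.8% at day 3. With an offset for transcript length the day 3 value fell to 0.63 and was no longer called, as was the case with a stricter low-count filter (0.96), DESeq2 (0.93) and a fit to the 2 groups alone (0.99). The day 9 value fell to 0.96 with the length offset and was lost there too.

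Hmox1 and Srxn1 went the other way. Hmox1, the inducible heme oxygenase (chr8:75093621-75100589), was at 115 and 117 CPM in MEFs, 32.1 and 27.8 at day 3, 21.4 and 23.7 at day 6, 25.7 and 24.5 at day 9 and 122 and 123 in ESCs. MEF and ESC libraries were high, and the 6 induced libraries were all lower than these 4. The log2 fold change was -1.95 ± 0.06 at day 3 against MEF (SE, adjusted p = 1.1e-12 by edgeR) and 2.29 ± 0.06 in ESC against day 9 (SE, adjusted p = 2.3e-13 by edgeR). Srxn1 encodes sulfiredoxin, which restores overoxidised peroxiredoxins (chr2:152105516-152111376). It was at 61.1 and 60.3 CPM in MEFs, 21.6 and 21.9 at day 3, 14.5 and 15.1 at day 6, 16.9 in both day 9 libraries and 47.3 and 45.2 in ESCs. It was also lower in all induced libraries than in any MEF or ESC library, with log2 fold changes of -1.48 at day 3 against MEF and 1.45 in ESC against day 9. Macrophages, a cell type with much Hmox1, had markers at 61.9 to 63.8 TPM in ESCs and 5.80 to 6.00 at day 9. From MEF to day 3 the marker sum went the other way from Hmox1, from 11.6 to 11.7 TPM to 22.6 to 24.9. In ESCs the largest markers were Lyz2 (23.8 TPM) and Cd68 (18.5 TPM). Ptprc, Csf1r and Cd14 were lower at day 3 and in ESCs than in MEFs, at 74.1%, 83.6% and 49.4% of MEF in ESCs. The part of macrophages in the ESC value of Hmox1 was not tested.

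**Figure D2:**
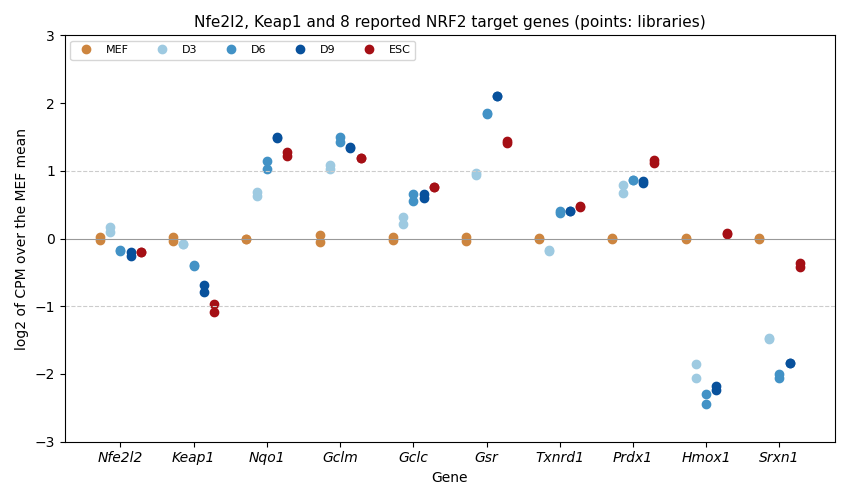
Level of Nfe2l2, Keap1 and 8 genes reported as NRF2 targets in each library, as log2 of CPM over the gene's MEF mean; points are libraries, coloured by group, and dashed lines mark -1 and 1. Nqo1, Gclm and Gsr lie above 1 at day 9, Hmox1 and Srxn1 lie below -1 from day 3 to day 9 and near 0 in ESCs, and Nfe2l2 stays near 0.

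Superoxide dismutases turn superoxide into hydrogen peroxide, which catalase and the peroxidases remove. Sod1, the cytosolic copper-zinc enzyme (chr16:90220754-90226329), was at 166 and 165 CPM in MEFs, 369 and 342 at day 3, 339 and 344 at day 6, 329 and 332 at day 9 and 422 and 441 in ESCs. Levels of the induced groups were close to each other, and all lay above MEF. The day 3 rise was 1.10 ± 0.04 on the log2 scale (SE, adjusted p = 4.9e-12 by edgeR) but 0.98 with DESeq2, below the minimum. Day 9 against MEF, at 1.00, fell just short of it and was called at 1.29 with library-size scaling. Sod2, the mitochondrial manganese enzyme (chr17:13006846-13040063), rose later. It was at 42.8 and 42.3 CPM in MEFs, 52.9 and 54.2 at day 3, 99.3 and 99.0 at day 6, 116 and 114 at day 9 and 115 in both ESC libraries, and its log2 fold change at day 9 against MEF was 1.44 ± 0.04 (SE, adjusted p = 8.4e-14 by edgeR). Sod3, the secreted enzyme, fell from 17.1 and 17.3 CPM in MEFs to 1.67 and 0.975 at day 3 and 0.147 and 0.0302 at day 6. It stood at 0.450 and 0.581 at day 9 and 2.24 and 1.20 in ESCs. Its day 6 value rests on 5 and 1 reads, and the day 9 against day 6 call (2.50) was lost without day 6 replicate 2 (1.80, adjusted p = 0.096 by edgeR) and without day 9 replicate 2 (2.28, adjusted p = 0.067). Cat, the peroxisomal catalase, was at 70.9 to 98.5 CPM in all 10 libraries and was called in no comparison.

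Among the glutathione peroxidases, Gpx4, which reduces lipid hydroperoxides in membranes, had 70.0% of the family's summed TPM in MEFs and 87.8% in ESCs. TPM is per length, and short transcripts took part of the Gpx4 reads. In MEFs a 280-base retained-intron transcript had 31.3% and 29.9%, and a 516-base processed transcript 19.3% and 17.4%. By reads, Gpx1 stood above Gpx4 in MEFs, at 8782 and 10635 beside 7436 and 8982. In CPM, Gpx4 was at 275 and 274 in MEFs, 330.0 and 302 at day 3, 283 and 303 at day 6, 271 and 272 at day 9 and 440.0 and 471 in ESCs. ESC libraries were the highest, yet at log2 fold changes of 0.74 against day 9 and 0.73 against MEF the gene was not called. With library-size scaling the value against MEF became 1.07 and was called. Gpx1, the common cytosolic form, ranged from 217 to 342 CPM and was not called either. Gpx3, Gpx7 and Gpx8 fell. Gpx3, a secreted form, was at 123 CPM in both MEF libraries, 22.6 and 19.8 at day 3, 20.6 and 22.0 at day 9 and 46.8 and 53.9 in ESCs. Gpx7, in the endoplasmic reticulum, was at 98.0 and 103 CPM in MEFs, 32.6 and 30.3 at day 3, 16.5 and 17.2 at day 6, 10.4 and 11.6 at day 9 and 19.4 and 20.7 in ESCs. Gpx8, in the same compartment (chr13:113042753-113046410), went further, from 123 and 126 CPM in MEFs to 44.4 and 43.0 at day 3, 5.20 and 5.47 at day 6 and 2.73 and 2.93 at day 9, with 26.2 and 29.6 in ESCs. Each group of Gpx8 libraries was apart from the next, and day 9 against MEF gave a log2 fold change of -5.45 ± 0.08 (SE, adjusted p = 1.2e-16 by edgeR).

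Gpx2, the form known from gut epithelium (chr12:76792333-76795554), is described without a test. It had 2 and 0 reads in MEFs, 3 and 0 at day 3, 90 and 86 at day 6, 2007 and 2568 at day 9 and 145 and 211 in ESCs. In CPM this is 2.65 and 2.60 at day 6, 64.5 and 64.9 at day 9 and 4.27 and 5.63 in ESCs. The day 9 mean was 1750 times that of MEFs. Taken against the 2 reads pooled over both MEF libraries, the factor was 1920, with a 95% interval for counting error of 531 to 15800. At day 9 Gpx2 stood at 34.5 ± 0.0812 TPM (SD, n = 2), beside 1204 for Gpx4, whose TPM includes short transcripts. In CPM the day 9 means were 64.7 for Gpx2 and 272 for Gpx4. Simple epithelial markers moved over the same libraries, from 67.6 to 68.2 TPM at day 6 to 386 to 407 at day 9, and were at 125 to 126 in ESCs. Stratified epithelial markers went from 40.3 to 40.8 TPM at day 6 to 102 to 103 at day 9, with 7 of 16 at 1 TPM or more in both day 9 libraries and the basal keratin gene Krt5 at a mean of 0.116 TPM. Their part in the Gpx2 value was not tested. Gpx6 had at most 12 reads in any library, and its calls against MEF at day 9 and in ESC against day 9 were lost when any single library of either group was left out.

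Peroxiredoxins were abundant. Summed over 7 genes they stood at 918 and 925 TPM in MEFs, 1153 and 1143 at day 3, 1272 and 1250.0 at day 6, 1149 and 1169 at day 9 and 1167 and 1209 in ESCs. Part of the reads was on transcripts not annotated as protein-coding. In MEFs a 549-base retained-intron transcript had 39.6% and 40.3% of Prdx2 reads. A Prdx6 transcript labelled as nonsense-mediated decay had 61.7% and 62.9% of that gene's reads. None of the 6 tested was called in any of the 3 successive steps up to day 9. The background for day 3 against MEF was 14.6% and 14.5%. At day 9 against MEF, 0 were higher and 2 lower (background 24.1% and 19.8%). ESC against day 9 had 0 higher and 1 lower (background 18.6% and 14.3%). ESC against MEF had 1 higher and 1 lower (background 25.5% and 20.6%). Without the fold minimum edgeR gave all 6 an adjusted p under 0.05 at day 3 against MEF, with log2 fold changes from -0.69 (Prdx5) to 0.73 (Prdx1). The share of all genes under that threshold alone was not taken. Prdx1, a cytosolic form and the most abundant of the family, was at 428 and 431 CPM in MEFs, 742 and 684 at day 3, 760.0 and 773 at day 9 and 926 and 955 in ESCs. ESC libraries were the highest and MEF the lowest, at a log2 fold change of 1.13 ± 0.04 (SE, adjusted p = 1.2e-12 by edgeR). Prdx2, the other main cytosolic form, was at 263 and 278 CPM in MEFs and 468 and 488 at day 9 but 214 and 227 in ESCs, and ESC against day 9 gave -1.12 ± 0.04 (SE, adjusted p = 1.6e-11 by edgeR), which was -0.96 and not called with limma on log2 TPM. With library-size scaling Prdx1 and Prdx2 were also called higher at day 9 than in MEFs, at 1.13 and 1.11. Prdx4, of the secretory pathway, and Prdx5, found in several organelles, were lower at day 9 than in MEFs, with log2 fold changes of -1.37 and -1.32. Mitochondrial Prdx3 ranged from 43.7 to 77.1 CPM and Prdx6 from 174 to 279, and neither was called.

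The thioredoxin reductases were called in no comparison. Txnrd1, the cytosolic enzyme, was at 203 and 201 CPM in MEFs, 180.0 and 177 at day 3, 268 and 262 at day 6, 267 and 269 at day 9 and 283 and 278 in ESCs. Mitochondrial Txnrd2 ranged from 6.52 to 12.2 CPM and Txnrd3 from 8.45 to 12.5. The Txnrd1 groups were separate between day 3 and day 6, by a log2 fold change of 0.57, under the minimum.

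**Figure D3:**
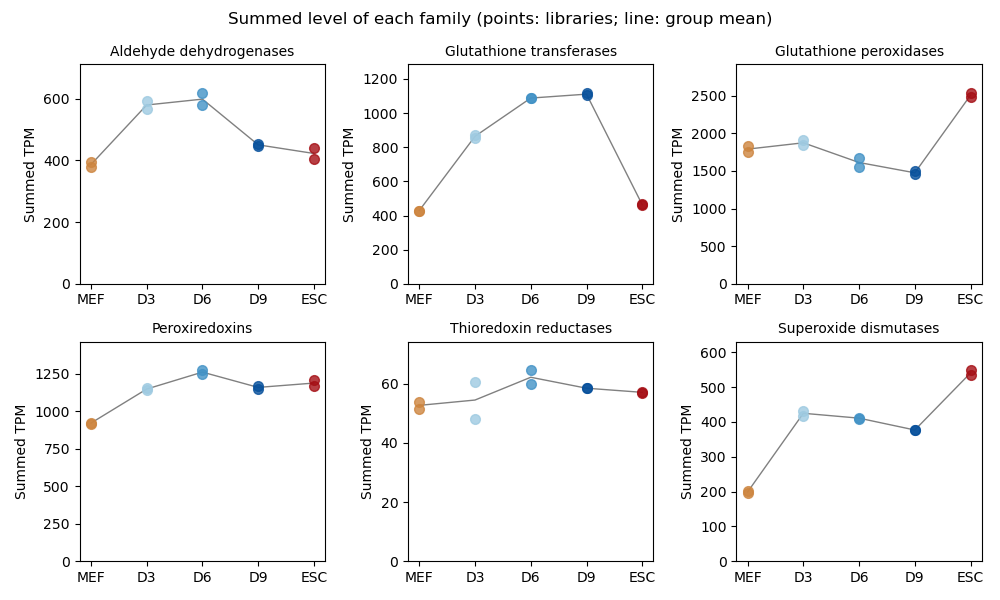
Summed TPM of each enzyme family by group; points are the 2 libraries and lines join group means, with each axis starting at 0. Glutathione transferases stand at 429 in MEFs, 1111 on day 9 and 463 in ESCs, superoxide dismutases go from 199 to 425 at day 3, and the thioredoxin reductases stay within a narrow band.

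Many glutathione transferases were higher at day 9 than in MEFs, and most were lower again in ESCs. Their summed level was 428 and 429 TPM in MEFs, 872 and 857 at day 3, 1088 and 1087 at day 6, 1104 and 1118 at day 9 and 465 and 460.0 in ESCs. No induced library came near a MEF or ESC library. Of 19 tested, 10 were higher and 1 (Gsto2) was lower in day 9 cells than in MEFs (background 24.1% and 19.8%). Set against day 9 cells, ESCs had 2 higher (Gstp2 and Gstm3) and 13 lower (background 18.6% and 14.3%). Gsto2 and Gstm3 are named after their values were seen, and the Gstm3 call was lost without ESC replicate 2 (1.39, adjusted p = 0.093 by edgeR). Median log2 fold changes were 1.06 and -1.55, beside 0.193 and 0.00496 over all genes. At day 3 against MEF, 7 were higher and 2 lower (background 14.6% and 14.5%).

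Gsta4, which conjugates the lipid peroxidation product 4-hydroxynonenal (chr9:78182774-78209349), was at 18.5 and 19.6 CPM in MEFs, 528 and 486 at day 3, 597 and 612 at day 6, 530.0 and 538 at day 9 and 224 and 230.0 in ESCs. The change was complete by day 3, at a log2 fold change of 4.73 ± 0.05 (SE, adjusted p = 2.3e-17 by edgeR), and ESCs were intermediate. Gsta4 alone took 2.88% of the family's summed TPM in MEFs and 38.6% at day 3, and its share in ESCs was 33.5%. Gsta3, a close relative on chromosome 1 (chr1:21240589-21265661), rose step by step instead, from 0.776 and 0.457 CPM in MEFs to 2.91 and 2.63 at day 3, 10.5 and 9.83 at day 6 and 32.6 and 35.0 at day 9, with 3.21 and 3.52 in ESCs. Each step was called, with log2 fold changes of 2.20, 1.87 and 1.74, and ESC against day 9 was -3.33 ± 0.11 (SE, adjusted p = 2.2e-12 by edgeR).

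The mu class lies in a run of 7 genes over 149.1 kb of chromosome 3. Gstm1 (chr3:108012255-108017973) was at 69.7 and 71.0 CPM in MEFs, 150.0 in both day 3 libraries, 250.0 and 254 at day 6, 239 and 237 at day 9 and 25.0 and 24.7 in ESCs. ESC libraries were the lowest of all, at a log2 fold change of -3.26 ± 0.04 against day 9 (SE, adjusted p = 3.9e-17 by edgeR) and -1.50 against MEF. The day 3 rise of 1.09 became 0.97 with DESeq2 and was then not called. Gstm5, at the other side of the run, was at 37.3 and 36.3 CPM in MEFs, 58.2 and 57.0 at day 9 and 6.95 and 7.82 in ESCs, with -2.96 for ESC against day 9.

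The theta class forms a run of 4 genes over 63.3 kb of chromosome 10. Gstt3 was at 7.68 and 7.65 CPM in MEFs, 50.6 and 51.3 at day 3, 33.5 and 30.1 at day 6, 28.8 and 29.1 at day 9 and 5.57 and 5.85 in ESCs. It was highest at day 3, where it stood 2.73 ± 0.07 above MEF on the log2 scale (SE, adjusted p = 1.2e-13 by edgeR). Gstt1 was also highest there, at 11.2 and 10.9 CPM against 5.10 and 5.21 in MEFs, and fell to 4.44 and 5.08 at day 6. Gstk1, the kappa class enzyme of mitochondria and peroxisomes, was at 4.47 to 6.03 CPM in the 6 libraries up to day 6, at 12.6 and 12.7 at day 9 and at 2.71 and 2.46 in ESCs.

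The pi class genes Gstp1 and Gstp2 are 10.6 kb apart at their outer ends on chromosome 19 and share sequence. Gstp1 was at 137 and 139 CPM in MEFs, 188 and 201 at day 9 and 132 and 120.0 in ESCs, and was not called. Gstp2 rose at each step, from 1.55 and 1.59 CPM in MEFs to 6.08 and 3.72 at day 3, 13.9 and 14.1 at day 6, 35.0 and 36.0 at day 9 and 72.0 and 79.4 in ESCs. ESC libraries lay above day 9 libraries by a log2 fold change of 1.09 ± 0.09 (SE, adjusted p = 6.2e-08 by edgeR). Of the 50-base words in Gstp2 transcripts, 54.3% also occur in another gene, mainly Gstp1, so its reads could be split between genes, and the Gstp2 values are uncertain to that extent. The same share was 90.5% for Gsta1, 18.9% for Gstm1 and 34.7% for Gpx4, whose words recur in pseudogenes, and 0.0% for Gsta4, Aldh3a1 and Gpx8.

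**Figure D4:**
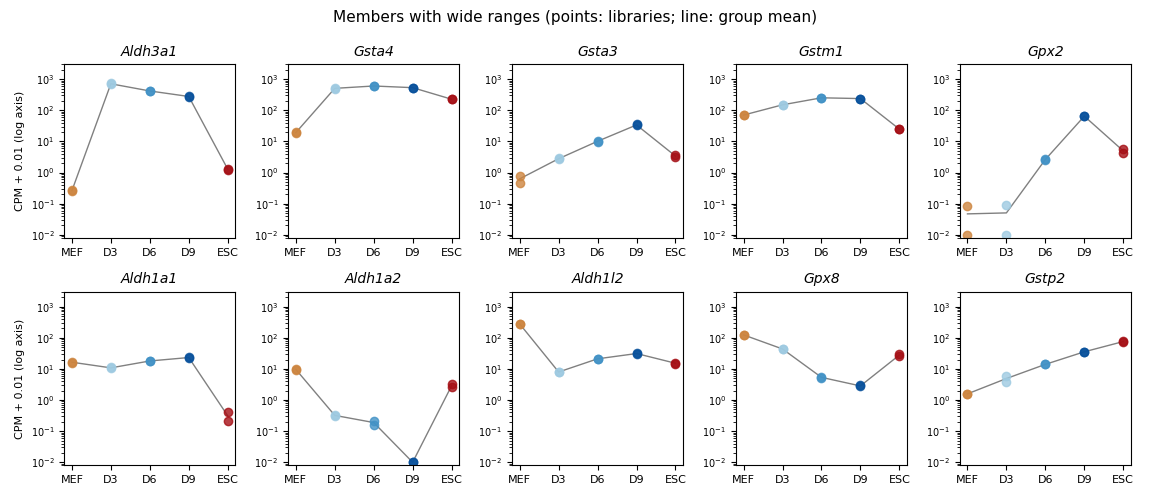
CPM plus 0.01 of 10 genes with wide ranges, on a log axis; points are libraries and lines join group means. Aldh3a1 is highest at day 3, and Gsta4 stays high from day 3 on. Gsta3 climbs from MEF to day 9, Gpx2 from day 3 to day 9 and Gstp2 at every step. Gsta3 and Gpx2 are lower in ESCs than at day 9, and Aldh1a2 has 0 reads at day 9.

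Aldehyde dehydrogenases went in both directions. Leaving out Aldh3a1, 4 of 17 tested were higher and 5 lower at day 3 against MEF (background 14.6% and 14.5%). At day 9 against MEF, 4 were higher and 7 lower (background 24.1% and 19.8%). Aldh3a1, known from the cornea, where it oxidises medium-chain aldehydes (chr11:61207537-61218421), is described without a test. It had 7 and 8 reads in MEFs and 27213 and 23331 at day 3. In CPM it was at 0.259 and 0.244 in MEFs, 733 and 690.0 at day 3, 419 and 416 at day 6, 272 and 285 at day 9 and 1.33 and 1.23 in ESCs. The gene took 0.0267% of the family's summed TPM in MEFs and 38.9% at day 3, and 18.3% was left at day 9. Its neighbour Aldh3a2, the fatty aldehyde dehydrogenase, lies in the same 59.9 kb of chromosome 11 and was not called higher in any comparison with MEF. It was at 58.9 and 58.6 CPM in MEFs, 48.3 and 46.4 at day 3, 28.2 and 27.2 at day 9 and 42.1 and 41.6 in ESCs, and was lower at day 9 than in MEFs, at -1.09 ± 0.05 on the log2 scale (SE, adjusted p = 2.8e-11 by edgeR). With library-size scaling this was -0.80 and no longer called.

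Aldh2, the mitochondrial enzyme that clears acetaldehyde (chr5:121566027-121593824), was at 124 and 121 CPM in MEFs, 283 and 265 at day 3, 374 and 370.0 at day 6, 287 and 296 at day 9 and 184 and 186 in ESCs. Every other library was above both MEF libraries, and the day 3 rise was 1.16 ± 0.04 on the log2 scale (SE, adjusted p = 1.8e-12 by edgeR). Aldh5a1, succinic semialdehyde dehydrogenase, went from 5.28 and 4.73 CPM in MEFs to 29.4 and 28.5 at day 9 and 13.9 and 14.1 in ESCs, with a log2 fold change of 2.54 at day 9 against MEF.

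The 3 retinaldehyde dehydrogenases, which make retinoic acid, each had a pattern of their own. Aldh1a1 (chr19:20492715-20643465) was at 17.1 and 15.7 CPM in MEFs, 11.1 and 10.5 at day 3, 18.6 and 17.5 at day 6, 22.5 and 23.9 at day 9 and 0.206 and 0.401 in ESCs. ESC libraries alone were low, at -6.22 ± 0.16 against day 9 on the log2 scale (SE, adjusted p = 1.4e-13 by edgeR). Aldh1a2 (chr9:71215789-71296243) had 272 and 304 reads in MEFs, 11 in each day 3 library, 7 and 5 at day 6, 0 in both day 9 libraries and 87 and 118 in ESCs. Against a floor of 3 reads in each library of the group, day 9 was at least 112-fold lower than MEF and at least 33.2-fold lower than ESC. From day 6 to day 9 it was the single gene of the group called lower, by a factor of at least 2.07. Aldh1a3 was at 29.3 and 27.8 CPM in MEFs, 4.93 and 4.49 at day 3, 1.94 and 2.54 at day 6, 3.63 and 3.49 at day 9 and 21.4 and 23.6 in ESCs, and was high in MEF and ESC libraries.

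Aldh1l1 and Aldh1l2 are the cytosolic and mitochondrial 10-formyltetrahydrofolate dehydrogenases of one-carbon metabolism. Aldh1l2 (chr10:83487450-83534140) was at 278 and 281 CPM in MEFs, 7.91 and 7.98 at day 3, 20.6 and 21.5 at day 6, 31.4 and 31.0 at day 9 and 14.8 and 15.6 in ESCs. MEF libraries were far above the others, and the log2 fold change at day 3 was -5.14 ± 0.05 (SE, adjusted p = 6.3e-18 by edgeR). Aldh1l1 was at 18.3 and 16.5 CPM in MEFs, 0.565 and 0.562 at day 3, 0.900 and 1.14 at day 9 and 7.45 and 7.02 in ESCs. Aldh3b1, which acts on lipid aldehydes, was at 6.68 to 7.98 CPM in MEF and day 3 libraries, 1.23 to 1.92 at days 6 and 9 and 2.95 and 3.87 in ESCs, and was lower at day 6 than at day 3 by -2.21 ± 0.22 on the log2 scale (SE, adjusted p = 9.1e-07 by edgeR). The Aldh3b1 call of ESC against MEF was lost without ESC replicate 1 (-0.94), and that of ESC against day 9 without ESC replicate 2 (0.84) or day 9 replicate 1 (0.83).

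Part of what was low at day 9 was higher in ESCs. Of the 16 genes of the group that were lower at day 9 than in MEFs, 9 were higher in ESCs than at day 9 and 1, Aldh1l2, was lower. All 16 were chosen as low in the same day 9 libraries, which favours a rise in ESCs in advance. Over all genes tested, 18.6% were higher and 14.3% lower in ESCs than at day 9. No share was taken over all genes chosen in the same way. The Aldh1l2 call was lost with DESeq2 (-0.97), with library-size scaling (-0.99) and, just under the minimum, without ESC replicate 1. ESC cultures contain feeder cells, so these 16 were set beside the 18 fibroblast markers. The markers stood at 1.17% to 44.1% of their MEF TPM in ESCs, with a median of 8.49%. The 16 genes stood at 4.43% (Aldh1l2) to 110.0% (Hmox1), with a median of 45.3%, and 9 of them were above the highest marker, Fn1. Aldh1a3 was at 95.1% and Srxn1 at 83.9%, whereas Gpx7 (21.8%), Gpx8 (23.7%), Sod3 (10.6%) and Aldh1a2 (31.2%) were within the range of the markers. The part of feeder RNA in each value was not tested.

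**Figure D5:**
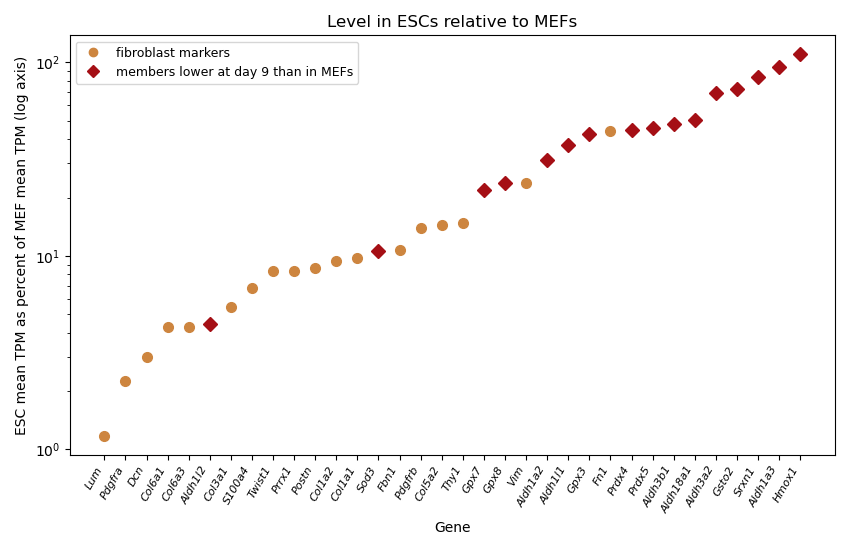
ESC mean TPM as a percent of MEF mean TPM, on a log axis, for 18 fibroblast markers (circles) and the 16 genes of the group that were lower at day 9 than in MEFs (diamonds), in rising order. Markers reach at most 44.1%, and 9 of the 16 lie above them, up to Hmox1 at 110.0%.

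Other genes of these pathways were counted from fixed lists. The background for each list is the share of all genes tested. It was 14.6% higher and 14.5% lower at day 3 against MEF, and 24.1% and 19.8% at day 9 against MEF. Of 26 genes for glutathione supply and recycling, 4 were called up and 5 down at day 3 against MEF, and 5 up and 7 down at day 9 against MEF. Slc7a11, the cystine carrier that feeds glutathione synthesis, fell from 282 ± 8.02 CPM at day 6 to 121 ± 2.40 at day 9 and 2.71 ± 0.0889 in ESCs (SD, n = 2). Chac1, which degrades glutathione, fell from 38.8 ± 0.319 CPM in MEFs to 1.47 ± 0.217 at day 3 (SD, n = 2). The membrane-bound transferase gene Mgst1 was at 84.7 ± 0.714 CPM at day 9 and 6.14 ± 0.980 in ESCs (SD, n = 2). Of 17 thioredoxin genes outside the group, 4 were higher and 1 lower at day 3. Among them Txnip, an inhibitor of thioredoxin, went from 182 ± 4.75 to 566 ± 10.4 CPM (SD, n = 2). Of 13 genes for NADPH supply, 1 was higher and 1 lower at day 3, and these were the folate enzymes Mthfd1 (48.5 to 102 CPM) and Mthfd2 (161 to 11.8 CPM).

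Of 14 genes that act with or on NRF2, 2 were called up and 6 down at day 9 against MEF (background 24.1% and 19.8%). Bach1, a repressor at NRF2 sites including that of Hmox1, was at 95.4 ± 1.36 CPM in MEFs and 19.6 ± 0.308 at day 9 (SD, n = 2), a log2 fold change of -2.28 ± 0.05 (SE, adjusted p = 3.0e-14 by edgeR). Of 17 other NRF2 targets with enough reads, 3 were up and 6 down in the same comparison, with the same background. Akr1b8 averaged 50.3 ± 4.15 CPM in MEFs and 5.86 ± 0.0285 at day 3, and 0.906 ± 0.174 at day 9 against 26.8 ± 2.85 in ESCs (SD, n = 2). Ephx1, an epoxide hydrolase, averaged 167 ± 2.46 CPM in MEFs and 586 ± 3.97 at day 3, and 372 ± 12.6 at day 9 against 40.5 ± 2.69 in ESCs (SD, n = 2).

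Aldh3a1 and Nqo1 are also known targets of the aryl hydrocarbon receptor. Of 8 tested genes of that receptor's battery outside the group, 1 was higher and 1 lower at day 3 against MEF (background 14.6% and 14.5%). The higher one was Ugt1a6a, a glucuronosyltransferase gene, with 2.75 ± 0.0288 CPM in MEFs and 82.9 ± 3.39 at day 3, and 65.2 ± 2.91 at day 9 against 2.07 ± 0.391 in ESCs (SD, n = 2), and its log2 fold change at day 3 was 4.91 ± 0.08 (SE, adjusted p = 1.8e-15 by edgeR). The lower one was the receptor gene Ahr itself, at 22.9 ± 0.330 CPM in MEFs and 2.67 ± 0.979 at day 3 (SD, n = 2). Cyp1b1, a cytochrome of the same battery, averaged 206 ± 1.85 CPM in MEFs and 251 ± 0.903 at day 3, and 12.9 ± 0.372 at day 9 against 101 ± 3.85 in ESCs (SD, n = 2).

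Gpx4 and the thioredoxin reductases are selenoproteins. Of 22 tested genes for selenoprotein synthesis and other selenoproteins, 1 was up and 10 were down at day 9 against MEF (background 24.1% and 19.8%). Selenom, a selenoprotein gene among the 10, was at 116 ± 0.69 CPM in MEFs and 12.4 ± 1.12 at day 9 (SD, n = 2). In ESCs, 3 of the 22 were higher and 10 lower than in MEFs (background 25.5% and 20.6%). Among the 3, Sephs2, which makes the selenium donor, was at 12.0 ± 0.160 CPM in MEFs and 83.9 ± 0.855 in ESCs (SD, n = 2). Alcohol and retinol dehydrogenases act one step before the aldehyde dehydrogenases. Of 13 tested, 2 were up and 5 down at day 9 against MEF (background 24.1% and 19.8%). In ESCs, 0 were higher and 5 lower than in day 9 cells (background 18.6% and 14.3%). Adh1 fell from 23.8 ± 1.01 CPM in MEFs to 0.806 ± 0.0731 at day 3, and Dhrs3 rose from 14.0 ± 1.14 to 64.8 ± 3.63 (SD, n = 2).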

How the data were processed

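Each library came as its own deposited table of 109617 transcripts. Per the file headers, it gives length, effective length, TPM and the estimated counts of reads. Per the submitters' processing notes, Salmon 0.8.2 and mm10 were used. Index, annotation release and filters are not given in the sources used here. Per the labels, libraries were stranded mRNA, single-end with 50-base reads, all under 1 batch label.

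Deposited estimated counts and deposited TPM were summed per gene symbol and identifier, and counts were rounded. filterByExpr of edgeR 4.0.16 in R 4.3.3 (minimum count 10, minimum total 15) kept 20165 genes. Counts were scaled by TMM and tested with the edgeR quasi-likelihood test fitted to all 10 libraries, with Benjamini-Hochberg adjustment over all genes. SE was taken as the size of the log2 fold change divided by √F. The common biological coefficient of variation was 3.75%. Intervals and read floors cover counting error only. Coordinates come from GENCODE M21, in which all 72 genes were found by identifier, and 11 list symbols were matched through its names. Promoter windows come from RefSeq.

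Genes and lists were chosen with earlier results of these data known. Counts without Aldh3a1 and Gpx2 were added after the data were seen. Named genes were the single genes, the Gpx, Txnrd, Prdx and Sod families and 9 chosen Aldh and Gst genes. To these the rule added, per comparison, up to 3 Aldh or Gst genes with the largest rise and 3 with the largest fall among those called, reaching 5 CPM in the group where they were higher, without overlap of groups. Listed genes outside the group were named at most 3 per list and comparison. The genes whose promoters or read counts are listed in full were named for that reason.

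Tested on simulated data for day 3 against MEF, edgeR recovered 100% of 200 genes changed by a log2 fold change of 2 among 19057, with 3 unchanged genes called. DESeq2 1.42.0 recovered 98% with 0, and limma 3.58.1 recovered 94% among 20165 with 0. The simulation gave every gene the same coefficient of variation, 3.75%. Only these 200 genes changed, all picked above a minimum mean count, and all others were flat over the 5 groups. It therefore checks that the code runs as intended and says nothing on genes with few reads or an uneven spread. Alternatives were DESeq2, other filters and scalings, an offset for length, limma on log2 TPM with a pseudocount of 1 or 0.1, dropping the fold minimum, a replicate block, fits to 2 groups and leaving out each library. Python 3.11.15, numpy 2.4.6, pandas 2.3.3 and matplotlib 3.10.9 were used.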

Additional observations from a re-analysis of the deposited data

How the results depend on the processing

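Under the alternatives other than dropping the fold minimum and limma on log2(TPM + 1), at least 367 of 390 calls and non-calls were unchanged in each setting fitted to all 10 libraries in which all 390 could be compared, and no called gene changed sign. DESeq2 left 374 of 388 unchanged, with 13 calls lost and 1 gained. Shares of all genes called were not taken under the alternatives. The counts below therefore describe the settings and are not results about the group. Without the fold minimum, counts of higher and lower genes were 30 and 23 for day 3 against MEF, 28 and 21 for day 6 against day 3, 24 and 17 for day 9 against day 6, 27 and 33 for ESC against MEF and 37 and 26 for day 9 against MEF, and ESC against day 9 had 25 higher. With limma on log2(TPM + 1), which compresses low values, 2 were lower at day 6 than at day 3, 3 were higher and 0 lower at day 9 than at day 6, 6 were higher in ESC than at day 9 and 9 higher in ESC than in MEF. The 1 gene lower at day 9 than at day 6, Aldh1a2, missed the fold minimum with limma on log2(TPM + 0.1), at -0.49, and was not among the genes tested with the stricter filter or in the fit to the 2 groups alone, so the count was 0 in all 3. Leaving out single libraries kept every count within a factor of 1.5. Equal replicate numbers did not deviate together: correlations of deviations from group means ran from -0.0205 to 0.0222. With the replicate block, day 9 against MEF had 20 higher, day 9 against day 6 had 6 higher and ESC against day 9 had 11 higher, with 3 calls lost and none gained. Depth limits the genes with few reads: calls of Gpx6 (at most 12 reads), of Sod3 at day 9 against day 6 and of Gsta1 were lost without single libraries. The cause of the other changes was not tested.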

Other observations

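Transcript shares, taken as the part of a gene's estimated reads given to each transcript, shifted for a few genes of the group whose totals are described above. In Prdx5 the transcript of 1262 bases took 31.2% and 29.6% of reads in MEFs, 39.0% and 36.9% at day 3, 52.6% and 54.1% at day 6, 57.1% and 58.3% at day 9 and 52.6% and 49.7% in ESCs. The 755-base transcript of the same gene went from 48.9% and 50.8% in MEFs to 29.5% and 24.1% at day 9. Libraries of MEF, day 3 and day 6 did not overlap for either. In contrast, shares of Txnrd2 transcripts differed widely between libraries of 1 group: the 1905-base Txnrd2 transcript took 20.4% and 46.7% of reads in MEF replicates 1 and 2, and 69.3% and 16.9% in those of day 3. Such shares are estimates from single-end reads, and none of these was tested.

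The core of the xenobiotic response element, GCGTG, bound by the aryl hydrocarbon receptor with its partner, was found in the promoter windows of 25 of 58 genes of the group (43.1%), beside 35.2% of all 27025 genes. At day 3 against MEF, 4 of the 22 tested genes with a match were higher and 3 lower (background 14.6% and 14.5%), and 15 were not called. Aldh3a1 had no match in its window, which says only that these letters are not there.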
